A study of Macaca mulatta with 12 samples.

Results

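Estrogen plus progesterone was compared with progesterone alone in the dorsal raphe of female rhesus monkeys (Macaca mulatta), using 6 of the 12 Affymetrix rhesus arrays of the study. The members were taken from the labels: the 3 arrays titled Estrogen and Progesterone, and the 3 arrays titled Progesterone. Each array stands for 1 monkey. All 4 groups of 3 (placebo, estrogen, progesterone, and estrogen plus progesterone) wore Silastic capsules under the skin between the shoulder blades for 1 month, and the comparison asks what estrogen does when progesterone is given in either case. Dose, age and the order in which the 2 hormones were started are not given in the sources used here. OVX, the usual code for ovariectomy, appears in the placebo titles and not in those of the hormone groups. The progesterone arrays have the code EP in their titles but P in their descriptions, and were treated as progesterone given alone. The RNA came from a block of tissue cut around the dorsal raphe, so fewer cells of a type and less RNA per cell cannot be told apart in any value given here.

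The dorsal raphe holds many of the serotonin neurons of the primate brain. These neurons make serotonin from tryptophan through tryptophan hydroxylase 2 (TPH2), load it into vesicles through the transporter SLC18A2, and keep their identity through transcription factors such as FEV, GATA2 and GATA3. Estrogen acts mainly through the nuclear receptors ESR1 and ESR2, and progesterone through the nuclear receptor PGR and through membrane proteins of the PAQR and PGRMC families. In many target tissues estrogen raises the amount of progesterone receptor, so the combination of both hormones need not equal the sum of each alone.

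The tissue label was checked against 3 markers of serotonin neurons. On the log2 intensity scale used throughout, FEV lay between 8.85 and 10.14 over the 12 arrays and SLC18A2 between 9.34 and 10.86, both above the level of 6.31 that a probe set had to reach on average to be tested. TPH2 lay between 4.66 and 8.85. The 3 progesterone arrays stood apart from the other 9 on the second principal component (-14.1, -46.3 and -54.5, beside 0.50 to 20.4). The first array of the combined treatment stood apart on the first component, at -44.0, together with the first arrays of placebo and of estrogen. The 3′ minus 5′ log2 signal of the control transcript EF1A was -0.37 to -0.31 in the progesterone arrays and -0.08 to 0.65 in the combined arrays, and that of ACTB was 0.66 to 1.23 and 0.48 to 0.63. For GAPDH the ranges overlapped (0.11 to 0.59 and 0.34 to 1.11). These RNA measures therefore differed between the 2 groups for 2 of the 3 controls, but in opposite directions. EF1A was -0.03 to 0.07 under placebo and 0.12 to 0.74 under estrogen, so the progesterone arrays were the lowest of all 12. ACTB was 0.11 to 0.63 under placebo and 0.52 to 0.90 under estrogen, and the estrogen range overlapped that of progesterone. The part of these RNA measures in the differences below was not tested. The 95% interval of a difference reached a median of 0.49 to each side of it.

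With estrogen added to progesterone, a small set of transcripts was lower and a smaller one higher. Limma called 22 of 26383 probe sets at an adjusted p under 0.05 (0.0834%), of which 18 fell (0.0682%) and 4 rose (0.0152%). The sizes of these 22 differences ran from 1.05 to 2.97 on the log2 scale, with a median of 1.59. The fallen genes were TM7SF3, PPM1A, WASHC4, USP16, EXTL2, ANKRD11, ITPRID2 and MYO6, and the risen genes ELFN2, LPCAT4 and EXOC3L1. The other 10 called probe sets, 9 of them lower, carry no gene name in the annotation used here. At an unadjusted p under 0.05 there were 3010 probe sets (11.4%), with 1592 higher (6.03%) and 1418 lower (5.37%). With the arrays only aligned on their medians, in place of quantile normalization, the share of higher probe sets among those at an unadjusted p under 0.05 was 69.0%, beside 52.9% here. The 3 combined arrays lay wholly above the 3 progesterone arrays for 2216 probe sets (8.4%) and wholly below them for 2269 (8.6%), together 17%.

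**Figure D1:**
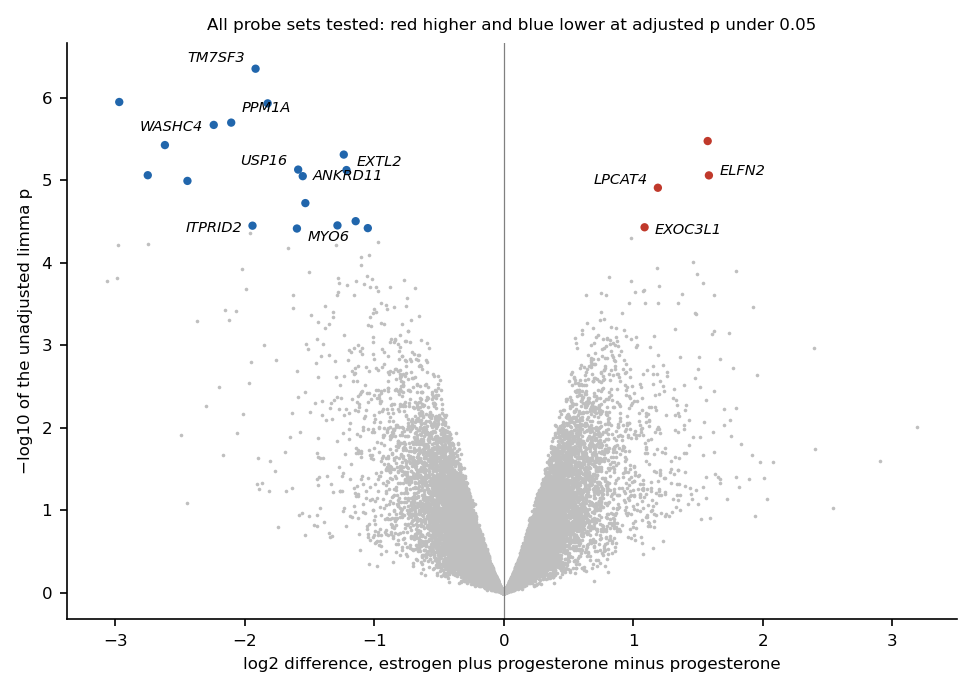
Log2 difference (estrogen plus progesterone minus progesterone, horizontal axis) against −log10 of the unadjusted limma p (vertical axis) for the 26383 probe sets tested. Blue points are the 18 probe sets that fell and red points the 4 that rose, with gene names where a probe set has one.

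TM7SF3, a multipass membrane protein that has been linked to cell survival under stress, had the lowest p. Its log2 intensity was 6.24, 6.79 and 6.36 in the combined arrays and 8.63, 8.25 and 8.26 in the progesterone arrays. The lowest progesterone array thus lay well above the highest combined one. The level was 3.78-fold lower with estrogen (95% interval 2.83 to 5.04), or -1.92 ± 0.19 on the log2 scale (SE, n = 3 in each group, limma adjusted p = 0.0103). PPM1A, a serine/threonine phosphatase that switches off SMAD and stress kinase signals, read 6.67, 6.89 and 7.19 with both hormones and 8.99, 8.95 and 9.13 with progesterone. The progesterone arrays were close together and the combined arrays were all lower. PPM1A was 4.30-fold lower (log2 -2.11 ± 0.24, adjusted p = 0.0113).

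WASHC4 encodes a subunit of the WASH complex, which builds branched actin on endosomes and sorts cargo there. It was the 1 named gene called on 2 probe sets. The first gave 5.46, 6.01 and 6.10 with both hormones and 8.23, 8.17 and 7.88 with progesterone, a log2 difference of -2.24 ± 0.26 (adjusted p = 0.0113, 4.73-fold). The second gave 7.12, 7.42 and 7.29 beside 8.63, 9.29 and 8.51, a difference of -1.53 ± 0.22 (adjusted p = 0.0313). On both, every combined array was below every progesterone array.

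USP16, a deubiquitinase that acts on histone H2A, read 6.84, 7.32 and 7.47 with both hormones and 8.63, 9.07 and 8.69 with progesterone (log2 -1.59 ± 0.21, adjusted p = 0.0182). ANKRD11, a chromatin regulator that binds steroid receptor coactivators and histone deacetylases, read 7.05, 6.66 and 7.26 beside 8.69, 8.52 and 8.42 (-1.55 ± 0.21, adjusted p = 0.0182). EXTL2, a glycosyltransferase of glycosaminoglycan synthesis, read 7.72, 7.71 and 8.04 beside 9.18, 9.11 and 8.82 (-1.22 ± 0.16, adjusted p = 0.0182). In each of these 3 genes the lowest progesterone array lay above the highest combined array. ITPRID2, which ties inositol trisphosphate receptors to the actin cytoskeleton, had wider replicates: 6.85, 7.69 and 7.72 beside 9.75, 9.49 and 8.84 (-1.94 ± 0.30, adjusted p = 0.0462). MYO6, the myosin that moves toward the minus end of actin filaments and drives endocytic traffic, read 6.18, 6.70 and 6.49 beside 8.17, 8.50 and 7.49 (-1.60 ± 0.25, adjusted p = 0.0462). Both passed narrowly, and their lowest progesterone array lay nearest to the combined arrays.

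Among the genes that rose, ELFN2, a postsynaptic leucine-rich repeat protein that binds metabotropic glutamate receptors across the synapse, read 7.96, 7.87 and 7.78 with both hormones and 6.58, 6.01 and 6.26 with progesterone. The combined arrays were close together and all above the progesterone arrays. The level was 3.00-fold higher with estrogen (95% interval 2.18 to 4.13; log2 1.59 ± 0.21, adjusted p = 0.0182). LPCAT4, an acyltransferase that remodels phospholipids, read 8.30, 7.84 and 8.24 beside 7.09, 6.91 and 6.81 (log2 1.19 ± 0.16, adjusted p = 0.0218). EXOC3L1, a relative of the exocyst subunit that tethers secretory vesicles, read 6.83, 6.97 and 7.10 beside 6.07, 5.93 and 5.64 (1.09 ± 0.17, adjusted p = 0.0462). The groups did not overlap in any of the 3. In all the called genes such separation largely follows from choosing them by p. Of the probe sets without a name, MmugDNA.40777.1.S1_x_at fell most (-2.97 ± 0.32, adjusted p = 0.0103) and MmugDNA.11281.1.S1_at was the 1 that rose (1.58 ± 0.19, adjusted p = 0.0142). The means of MmugDNA.40777.1.S1_x_at were 5.51 with both hormones, 5.81 under placebo and 5.75 under estrogen. These lay below the level of 6.31 for testing, so only its progesterone mean of 8.48 brought it into the test. The same held for the unnamed MmugDNA.42035.1.S1_at (6.22, 6.18 and 6.10, beside 7.46). It also held for the first WASHC4 probe set (5.86, 6.16 and 5.71, beside 8.10).

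The placebo and estrogen arrays, which were not used in this contrast, give the level of these genes without progesterone. TM7SF3 read 6.48 ± 0.24 (SD, n = 3) under placebo and 6.60 ± 0.07 under estrogen, beside 6.46 ± 0.29 with both hormones and 8.38 ± 0.22 with progesterone. PPM1A read 6.84 ± 0.36 and 6.77 ± 0.42, beside 6.92 ± 0.26 and 9.02 ± 0.09. ELFN2 read 7.36 ± 0.21 and 7.64 ± 0.37, beside 7.87 ± 0.09 and 6.29 ± 0.28. In TM7SF3 and PPM1A the progesterone group was the one whose level stood away. In all 18 called probe sets that fell, every placebo and estrogen array also lay below every progesterone array. In all 4 that rose, every placebo and estrogen array lay above every progesterone array. Over all probe sets tested, limma called 35 (0.133%) for progesterone against placebo and 0 for the combined treatment against placebo, at an adjusted p under 0.05. In ELFN2 the progesterone arrays were the lowest, but the combined arrays also lay above every placebo array (7.13, 7.43 and 7.52). Against placebo, the combined treatment differed by -0.30 to 0.94 over the 22 called probe sets, and the lowest limma adjusted p among them was 0.999. Progesterone alone differed from placebo by 1.90 for TM7SF3, 2.18 for PPM1A and 1.94 for WASHC4 (on its probe set of lowest p). The limma adjusted p was 0.00735, 0.00735 and 0.0171. For LPCAT4 the difference was -1.09 and passed (adjusted p = 0.0307). For ELFN2 and EXOC3L1 it was -1.08 and -0.84 and did not pass (adjusted p = 0.0914 and 0.0982). Nor did it pass for the unnamed MmugDNA.11281.1.S1_at (-0.64, adjusted p = 0.272), where the placebo mean of 6.78 lay between progesterone (6.14) and the combined treatment (7.72). These comparisons share the progesterone or the combined arrays with the main one, so they are not separate evidence.

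**Figure D2:**
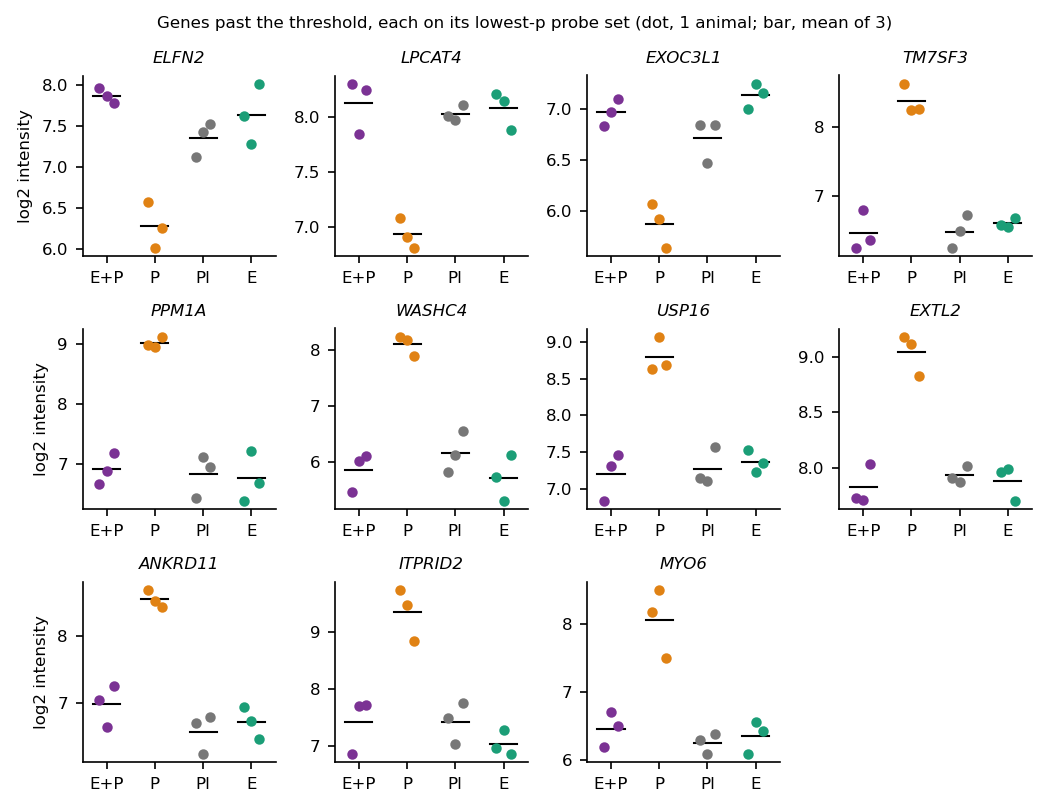
Log2 intensity (vertical axis) of the 11 called genes, each on its probe set of lowest p, in the combined (E+P), progesterone (P), placebo (Pl) and estrogen (E) groups. Dots are single animals and bars the mean of 3. For 8 genes the P dots lie above the E+P dots, and for ELFN2, LPCAT4 and EXOC3L1 below them.

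The calls depended on single arrays. Without the second progesterone array 0 probe sets passed (2590 at an unadjusted p under 0.05), although the log2 difference of TM7SF3 was then -1.98 (adjusted p = 0.0636) and that of PPM1A -2.14 (adjusted p = 0.0636). Calls numbered 3 without the first or the second combined array, 13 without the third, 7 without the third progesterone array and 36 without the first. In the groups outside the contrast, which lend their spread to the fit, leaving out the first placebo array gave 42 calls and leaving out the second gave 14. Over the 12 fits that each left out 1 array, TM7SF3 passed in 11 and ANKRD11 in 7, the WASHC4 probe sets in 9 and 4, EXTL2 in 9, USP16 in 8 and PPM1A in 8. The risen genes passed in 7 (ELFN2), 5 (LPCAT4) and 2 (EXOC3L1) of these fits, MYO6 passed in 2 and ITPRID2 in 1. The differences themselves moved less: -2.08 to -1.79 for TM7SF3, -2.24 to -1.98 for PPM1A, 1.45 to 1.73 for ELFN2 and -2.20 to -1.65 for ITPRID2.

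A probe set reads a short stretch near the 3′ end of a transcript, and several on this array read the same gene. The 11 called genes have 31 probe sets, of which 12 were called. LPCAT4 and EXOC3L1 were called on their brightest probe set, and the other 9 genes on dimmer ones. Of the 19 probe sets that were not called, 15 were bright enough to be tested. In these, 12 had the sign of the call, with a median of 0.38 in its direction over the 15 and a range from -0.35 to 1.49. At an unadjusted p under 0.05, 6 had the sign of the call and 1 the opposite sign.

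The genes differed in how far their probe sets went together. For WASHC4 all 4 were lower with estrogen, the brightest by -0.38 (8.56, 8.71 and 8.19 beside 8.95, 8.92 and 8.71). For USP16 the second-dimmest was called and the dimmest was at -1.49, while the brightest was at 0.18. For PPM1A the 3 brighter probe sets lay between -0.34 and -0.12, far from the -2.11 of the called one. The brightest EXTL2 probe set was at -0.04, and its values overlapped between groups (9.69, 9.48 and 9.70 beside 9.65, 9.54 and 9.80). ITPRID2 was at -0.50 on its brightest probe set, with 10.09, 10.11 and 10.10 beside 10.64, 10.40 and 10.75, so the arrays were apart there too. ANKRD11 went both ways: its brightest probe set was at 0.35 (9.04, 8.97 and 9.22 beside 8.90, 8.55 and 8.72), while those too dim to be tested were at -2.65 and -2.26. MYO6 was at 0.16 on its brightest probe set and TM7SF3 at -0.51. The higher genes had ELFN2 at 0.56 and LPCAT4 at 0.63 on their other tested probe set. Where probe sets of a gene disagree, these files do not say which transcript each one reads.

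**Figure D3:**
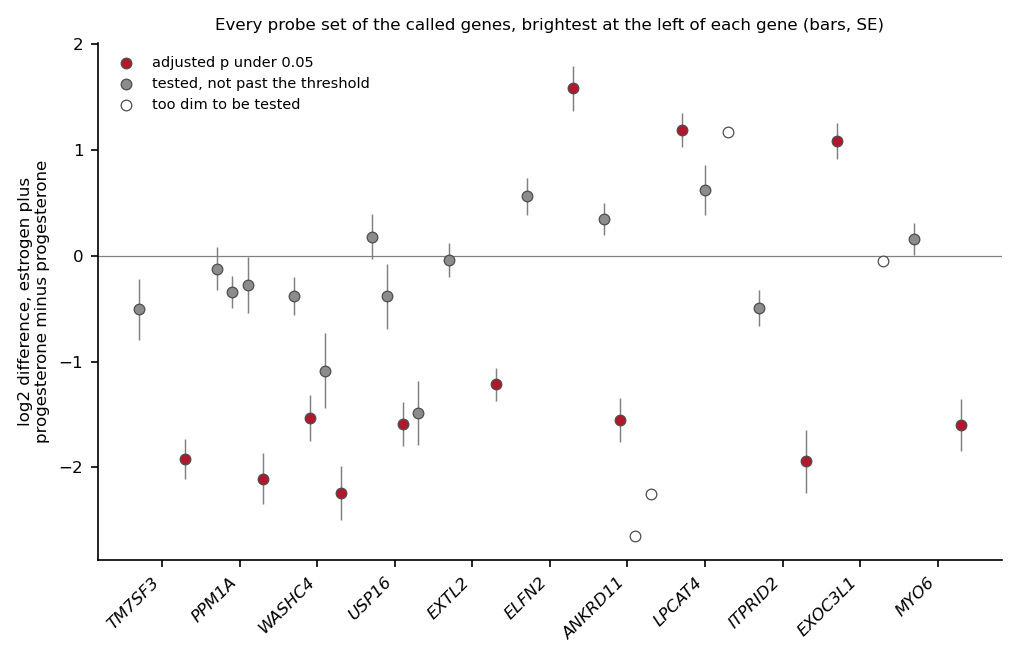
Log2 difference (estrogen plus progesterone minus progesterone, vertical axis) of each of the 31 probe sets of the 11 called genes, brightest at the left of each gene, with bars for the SE. Red points passed the threshold, grey points were tested and did not pass, and open points were too dim to be tested. In 9 genes the red points sit to the right of a brighter grey point nearer to 0.

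Several genes lay just outside the threshold. CCDC88A (girdin), an actin-binding regulator of cell migration, read 6.39, 6.22 and 5.88 with both hormones and 8.43, 8.23 and 7.71 with progesterone (log2 -1.96 ± 0.31, adjusted p = 0.0502). The means of this probe set were 6.16 with both hormones, 6.11 under placebo and 6.14 under estrogen, so only its progesterone level brought it into the test. The 3 other tested probe sets of CCDC88A lay between -0.021 and 0.53, and 1 of the 3 was lower. PPP2R2C, a brain regulatory subunit of protein phosphatase 2A, had the largest difference among the genes of lowest p, at 7.70, 6.89 and 7.53 beside 10.44, 10.48 and 10.13 (-2.98 ± 0.49, adjusted p = 0.0581). It did not pass here, although all its progesterone arrays lay far above the combined ones. The placebo arrays of PPP2R2C read 5.28, 7.29 and 7.72, and without the first placebo array its adjusted p was 0.00161. The mitochondrial ribosomal protein MRPS5 (-1.29) and the zinc finger protein ZNF146 (-1.11) had adjusted p of 0.0581 and 0.0734.

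On the higher side PPM1K, the mitochondrial phosphatase that activates branched-chain amino acid breakdown, read 9.26, 8.24 and 8.79 beside 7.50, 7.15 and 7.26 (1.46 ± 0.25, adjusted p = 0.0807). It was followed by CCDC181 (1.19), a microtubule-binding protein of cilia and flagella, DMAC1 (0.82), an assembly factor of respiratory complex I, and YPEL5 (0.99), part of a ubiquitin ligase complex. Next came SFPQ (1.09), a splicing and paraspeckle protein, KCTD6 (1.02), a ubiquitin ligase adaptor, and CPLX2 (0.75), the complexin that clamps synaptic vesicle fusion. SUPT5H (0.64) is a transcription elongation factor and CACNA1F (0.79) a calcium channel. The adjusted p of these 8 genes was 0.0905 for CCDC181 and 0.0939 for the others. The smallest of these differences had the tightest replicates: SUPT5H read 9.40, 9.38 and 9.30 beside 8.73, 8.73 and 8.71.

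In all 24 named genes of lowest p, 12 in each direction, the arrays of the groups were apart, which follows from choosing them by p. Of these genes, 21 had other tested probe sets, 35 in all, and 22 of the 35 had the same sign. CPLX2 was at 0.68 and PPM1K at 1.14 on their other probe set. SFPQ was at -0.0039 on its brighter one and KCTD6 at -0.17 on its other one. PPP2R2C ranged from -2.02 to 0.73 over 3 others, CCDC181 from -0.83 to 0.24 over 2, DMAC1 from -0.35 to 0.12 over 3 and YPEL5 from -0.15 to 0.11 over 2. MRPS5 was at 0.00098 on its other probe set.

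Gene families were then described from lists of known members, each gene on its brightest tested probe set. Over all 9305 genes with a name, 54.2% were higher with estrogen added and the median difference was 0.03. With median alignment those values were 64.4% and 0.10, so each family's count is also given in that scaling. Over all genes, 605 were higher (6.5%) and 443 lower (4.76%) at an unadjusted p under 0.05, together 11.3%. The members of a family are read against these shares. The arrays of the 2 groups were apart for 18.1% of all genes. Members named below are mostly those of lowest p, so their arrays tend to be apart by that choice. At the threshold, 2 genes passed on their brightest probe set (0.0215%). They were LPCAT4 and EXOC3L1, which belong to different lists, so no family had more than 1 such member. Neither passed when limma was run on brightest probe sets alone (adjusted p of 0.0598 and 0.0959).

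**Figure D4:**
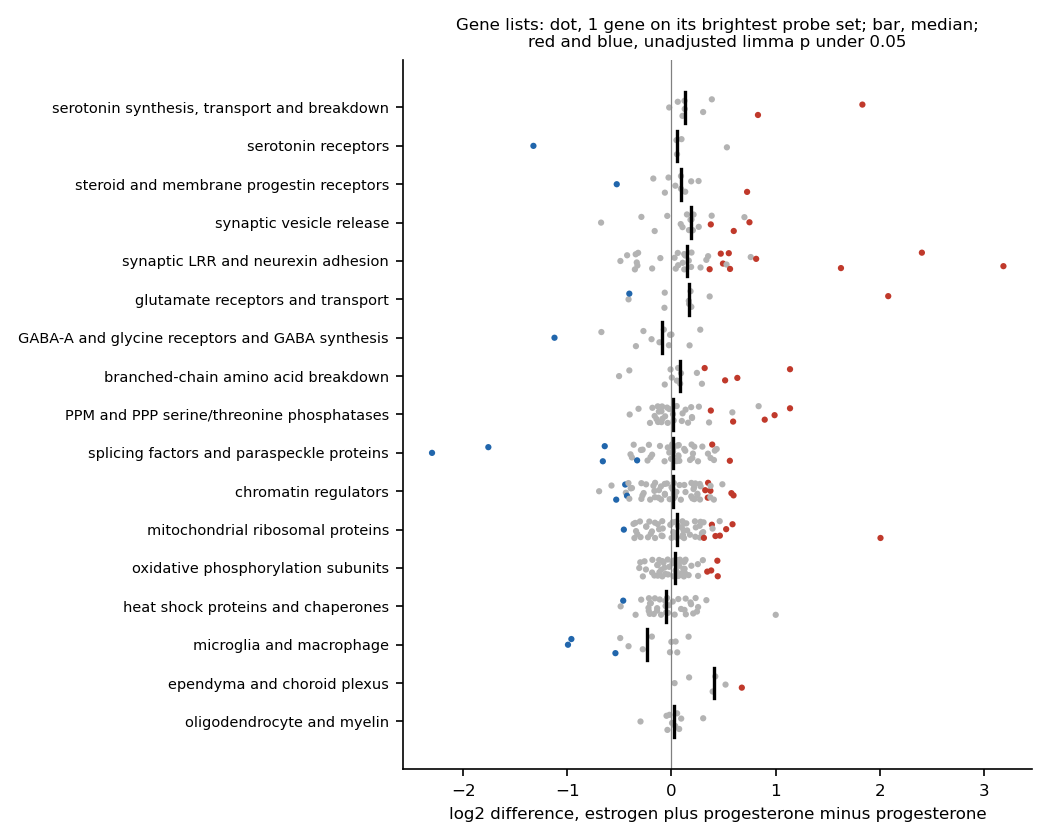
Log2 difference (estrogen plus progesterone minus progesterone, horizontal axis) of the genes of 17 lists, 1 dot per gene on its brightest tested probe set, with a bar at the median of the list. Red and blue dots have an unadjusted limma p under 0.05, and grey dots do not. Most medians lie near 0, with the ependyma and choroid plexus list at 0.41 and the microglia and macrophage list at -0.23.

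In the serotonin system no gene passed the threshold. Of 9 tested genes of synthesis, transport and breakdown, 8 were higher with estrogen added (9 with median alignment), with a median of 0.13 and 2 at an unadjusted p under 0.05. TPH2, the rate-limiting enzyme, read 8.85, 8.51 and 7.53 with both hormones and 7.74, 6.99 and 4.66 with progesterone. The lowest combined array was below the highest progesterone array, so the groups overlapped. The log2 difference was 1.83 ± 0.65 (95% interval 0.41 to 3.26, limma adjusted p = 0.323). It was 0.93 without the third progesterone array, the lowest of all 12, and between 1.56 and 2.47 without any other of the 6. PCBD2, which recycles the tetrahydrobiopterin cofactor that TPH2 needs, read 8.07, 7.90 and 8.04 beside 7.22, 6.77 and 7.53 (0.83 ± 0.19, adjusted p = 0.172). Its arrays did not overlap.

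The other genes of the pathway differed less. SLC18A2, the vesicular monoamine transporter, read 10.26, 10.04 and 10.01 beside 10.03, 9.77 and 9.34, with a difference of 0.39 (95% interval -0.10 to 0.88). The groups overlapped by a small margin. GCH1, which starts cofactor synthesis, differed by 0.13 (-0.43 to 0.68), and MAOA, which breaks serotonin down, by 0.13 (-0.32 to 0.57). The sign of both turned when 1 array was left out. DDC, which makes serotonin from its precursor, was not matched to a probe set here.

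Among the transcription factors of serotonin neurons, 3 of 4 tested were higher in both scalings and none reached an unadjusted p under 0.05. FEV read 9.54, 9.82 and 9.07 beside 8.85, 9.44 and 9.15 (0.33, 95% interval -0.24 to 0.90). GATA3 read 9.35, 9.43 and 9.36 beside 8.99, 9.30 and 9.28 (0.19, -0.15 to 0.53), with the arrays just apart, and was at -0.074 on its other tested probe set. GATA2 differed by 0.20 (-0.32 to 0.73). Of 5 tested serotonin receptors, 4 were higher and 1 lower in both scalings. The lower one was HTR7, a receptor that stimulates adenylyl cyclase, at 5.30, 6.53 and 6.75 beside 7.19, 7.77 and 7.60 (-1.33 ± 0.41, adjusted p = 0.281). HTR1A, the autoreceptor that restrains serotonin neurons, did not reach the level for testing, with a mean of 5.07 over the 12 arrays.

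The stress peptide system meets the serotonin neurons in the raphe through receptors for corticotropin-releasing hormone (CRH) and urocortin. Of 5 tested genes 4 were higher in both scalings. CRHR1, the main CRH receptor, read 7.86, 7.47 and 7.84 beside 7.46, 6.15 and 7.24 (0.77 ± 0.28, adjusted p = 0.340). Its groups were barely apart, the second progesterone array was the low one, and its other tested probe set was at -0.38. The binding protein CRHBP differed by 0.04 (95% interval -0.38 to 0.46) and urocortin (UCN) by -0.18 (-1.01 to 0.64). UCN read 9.10 in the second progesterone array and 7.38 to 7.98 in the other 5.

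**Figure D5:**
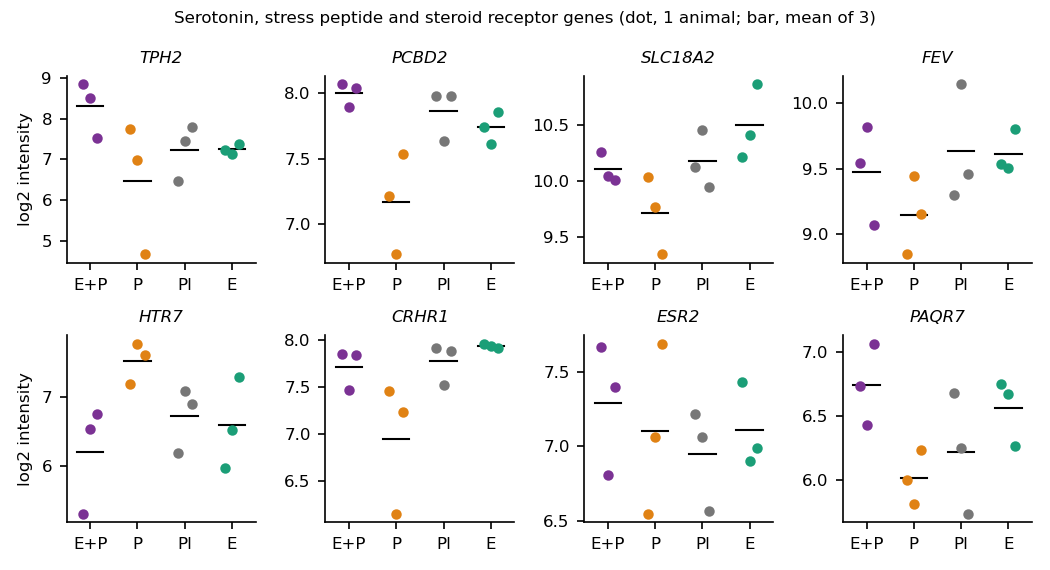
Log2 intensity (vertical axis) of 8 genes of serotonin signalling, stress peptides and steroid receptors in the combined (E+P), progesterone (P), placebo (Pl) and estrogen (E) groups. Dots are single animals and bars the mean of 3. The TPH2 mean is 8.30 with both hormones and 6.47 with progesterone, where 1 animal lies at 4.66. None of these genes passed the threshold.

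The steroid receptors themselves were measured in part. ESR1, PGR and the glucocorticoid-responsive chaperone FKBP5 did not reach the level for testing (means of 4.97, 2.82 and 4.21 over the 12 arrays), so these arrays do not show whether estrogen altered the progesterone receptor transcript here. ESR2 read 7.66, 6.81 and 7.39 beside 6.55, 7.06 and 7.69 (0.19, 95% interval -0.49 to 0.87), with the groups fully mixed. The glucocorticoid receptor NR3C1 differed by 0.26 (-0.13 to 0.65). The progesterone-binding membrane proteins PGRMC1 and PGRMC2 differed by 0.09 (-0.20 to 0.38) and -0.06 (-0.53 to 0.41), and PGRMC2 was at 0.02 with median alignment. The 2 other tested probe sets of PGRMC2 were at -0.60 and -0.30, 1 of them at an unadjusted p under 0.05. The 3 others of PGRMC1 lay between -0.45 and 0.40. Of 11 tested receptors, 7 were higher (9 with median alignment), with a median of 0.09. PAQR7, a membrane progestin receptor, read 6.73, 6.43 and 7.07 with both hormones and between 5.82 and 6.23 with progesterone (0.73 ± 0.25, adjusted p = 0.315). PAQR3, a Golgi protein of the same family, went the other way, at 8.20, 8.24 and 8.45 beside 8.72, 9.03 and 8.72 (-0.53 ± 0.18, adjusted p = 0.312). In both the arrays were apart.

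Coregulators carry the signal of these receptors to the transcription machinery. Of 18 tested, 8 were higher and 10 lower, and with median alignment 11 were higher and 7 lower. PPARGC1B, a coactivator of nuclear and mitochondrial genes, was at 0.51, the p160 coactivator NCOA3 at -0.67 and FKBP4, a cochaperone of the progesterone receptor, at 0.40, with adjusted p of 0.280 to 0.351. Genes known to respond to estrogen split 9 higher to 7 lower of 16 (10 to 6 with median alignment). Among them KCNK5, a potassium channel, was at 0.74 and XBP1, a transcription factor of the unfolded protein response, at -0.38. Genes known to respond to progestins or corticosteroids split 10 to 8 of 18 (11 to 7), with the clock gene PER1 at 0.48. Neurosteroid synthesis genes split 4 to 5 of 9 in both scalings. In these 3 lists 1 gene or none in each direction had an unadjusted p under 0.05.

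Both synaptic lists leaned to the higher side. Of 34 tested genes of leucine-rich repeat and neurexin-neuroligin adhesion, which align the transmitter release site with receptors across the cleft, 25 were higher and 9 lower in both scalings, with a median of 0.15 (0.08 to 0.26 over the alternative fits). At an unadjusted p under 0.05, 9 were higher and 0 lower, 26.5% of the list beside 11.3% of all genes. The called gene ELFN2 is among the 9. The list was chosen with earlier results of these data known, so this share is not separate evidence. PTPRS, a receptor phosphatase of the presynaptic side, read 8.11, 8.57 and 8.41 beside 7.97, 6.38 and 5.85 (1.63 ± 0.45, adjusted p = 0.229). Its other tested probe set was at -0.56, also at an unadjusted p under 0.05. LRRC4B, a postsynaptic partner of that phosphatase family, read 8.42, 8.91 and 9.18 beside 7.90, 4.52 and 4.53 (3.19 ± 1.03, adjusted p = 0.294). In LRRC4B the first progesterone array was near the combined arrays and the other two were far below, as was the first placebo array at 5.08. ELFN2 was at 0.56 on its brightest probe set, and its called probe set is described above.

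Of 18 tested genes of synaptic vesicle release, 14 were higher and 4 lower in both scalings, with a median of 0.19 (0.05 to 0.29 over the alternative fits) and 3 at an unadjusted p under 0.05, all higher. CPLX2 read 10.47, 10.80 and 10.60 beside 9.79, 9.90 and 9.93. DNM1, the neuronal dynamin that retrieves vesicle membrane, read 11.53, 11.92 and 11.94 beside 11.48, 11.21 and 10.90 (0.60 ± 0.19, adjusted p = 0.292). RAB3A, the vesicle GTPase, read 11.16, 11.34 and 11.49 beside 11.09, 10.90 and 10.87 (0.38 ± 0.14, adjusted p = 0.345). The groups did not overlap in any of the 3, which largely follows from choosing them by p, and for DNM1 and RAB3A they were barely apart. The summed intensity of the list ran from 23671 to 25431 in the combined arrays and from 19435 to 23703 in the progesterone arrays.

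Of 12 tested GABA-A and glycine receptor and GABA synthesis genes, 2 were higher and 10 lower, and with median alignment 5 were higher and 7 lower. The median was -0.09. GABRA2, a subunit of the GABA-A receptor, read 7.90, 7.18 and 7.71 beside 9.28, 8.45 and 8.43 (-1.12 ± 0.26, adjusted p = 0.162). Its arrays did not overlap, and it was the only member at an unadjusted p under 0.05. Of 10 tested glutamate receptor and transport genes, 6 were higher (7 with median alignment). GRIN1, the obligatory NMDA receptor subunit, read 8.16, 8.43 and 8.62 beside 7.54, 6.61 and 4.81 (2.08 ± 0.81, adjusted p = 0.361), and its progesterone arrays were widely spread. GRIA4, an AMPA receptor subunit, was at -0.41. Of 28 tested potassium channel genes 14 were higher and 14 lower (17 and 11 with median alignment), and the 4 at an unadjusted p under 0.05 were all higher. KCNC4, a fast delayed rectifier, read 9.32, 9.57 and 9.71 beside 8.90, 8.55 and 8.98 (0.73 ± 0.16, adjusted p = 0.157). KCNJ6, a channel opened by inhibitory G protein-coupled receptors, was at 0.44 and KCNH2 at 0.49.

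Several lists were taken from the functions of the called genes, so their called members are not independent of the choice. The fallen genes PPM1A, WASHC4, EXTL2, USP16 and MYO6 belong to these lists. They were called on dimmer probe sets, so counts on the brightest probe set leave those calls out. Of 36 tested serine/threonine phosphatase genes, 19 were higher and 17 lower (26 and 10 with median alignment). At an unadjusted p under 0.05 there were 5 higher and 0 lower, 13.9% of the list beside 11.3% of all genes. The called member PPM1A fell. ILKAP, a phosphatase that restrains integrin-linked kinase, read 6.79, 7.65 and 7.53 beside 6.68, 6.01 and 6.30 (0.99 ± 0.29, adjusted p = 0.249). PPM1K was at 1.14, and PPP1R1B (DARPP-32), which inhibits protein phosphatase 1 in dopamine-responsive cells, at 0.90. The branched-chain amino acid breakdown list was chosen with the value of PPM1K known and counts PPM1K among its members. In it, 11 of 15 genes were higher (13 with median alignment), and at an unadjusted p under 0.05 there were 4 higher, PPM1K included, and 0 lower. ALDH6A1, of valine breakdown, was at 0.63 and MCCC1, of leucine breakdown, at 0.32.

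The WASH complex, retromer and endosomal sorting list split 15 to 13 of 28 (17 to 11 with median alignment). EHD1, which recycles endosomal cargo, was at 1.79 with progesterone values of 7.18, 4.88 and 5.88, and the retromer core VPS35 was at -1.27 with overlapping arrays. SNX3, a sorting nexin, was at -0.30. The exocyst list split 5 to 7 of 12 (6 to 6). At an unadjusted p under 0.05 there were 2 higher and 2 lower, 33.3% of the list beside 11.3% of all genes. That share includes the called EXOC3L1. The summed intensity of the list ran from 5812 to 5829 in the combined arrays and from 6518 to 7180 in the progesterone arrays. EXOC3L1 rose, while EXOC5, a core subunit of the complex, read 9.92, 9.93 and 9.68 beside 10.55, 10.68 and 10.56 (-0.76 ± 0.17, adjusted p = 0.160). The arrays of EXOC5 were wide apart, and its 4 other tested probe sets lay between -1.23 and -0.13. RALA, a GTPase that engages the exocyst, was at -0.38. Phospholipid acyltransferases and phospholipases split 10 to 10 of 20 (12 to 8), with LYPLA1, a thioesterase, at -0.54 and AGPAT1, an acyltransferase of phosphatidic acid, at 0.40 beside the risen LPCAT4. Heparan sulfate synthesis split 12 to 10 of 22 (16 to 6), with the sulfotransferases HS6ST1 at 0.82 and HS2ST1 at -0.47 and the epimerase GLCE at 0.48. Deubiquitinases split 21 to 23 of 44 (30 to 14), with USP21 at 0.61, STAMBP at -0.65 and USP22 at 0.48. The other tested probe set had the opposite sign in STAMBP (0.56) and USP22 (-0.20). Myosins and actin regulators split 9 to 12 of 21 (14 to 7). In that list PFN1, the actin monomer-binding profilin, read 9.09, 9.44 and 8.78 beside 7.70, 7.64 and 7.92 (1.35 ± 0.27, adjusted p = 0.108), and ACTR2 of the Arp2/3 complex was at -0.34, with 4 other tested probe sets between -0.012 and 0.33.

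RNA processing and chromatin genes were mixed. Of 45 tested splicing and paraspeckle genes, 26 were higher and 19 lower (30 and 15 with median alignment), while at an unadjusted p under 0.05 there were 2 higher and 5 lower. RBM25, which steers splice site choice, read 6.24, 7.22 and 7.19 beside 9.21, 9.26 and 9.08 (-2.30 ± 0.68, adjusted p = 0.251). SRRM2, a scaffold of nuclear speckles, read 8.65, 8.58 and 9.26 beside 10.71, 10.67 and 10.39 (-1.76 ± 0.43, adjusted p = 0.181). PTBP2, the neuronal splicing repressor, read 9.18, 8.99 and 9.02 beside 9.53, 9.78 and 9.86 (-0.66 ± 0.16, adjusted p = 0.178). The arrays were apart in all 3, which largely follows from choosing them by p. The other tested probe sets of RBM25 and SRRM2 were at -0.94 and -0.39, and that of PTBP2 was at 0.39. Of 61 chromatin regulators 32 were higher and 29 lower (37 and 24), with 6 higher and 3 lower at an unadjusted p under 0.05. In addition, 1 member was called lower on a dimmer probe set. SUZ12, of the Polycomb repressive complex, was at -0.53, the histone deacetylase HDAC2 at -0.43 (0.15 on its other tested probe set), and the remodelling ATPase SMARCA2 at 0.60.

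Among the lists of protein synthesis and respiration, the counts of cytosolic ribosomal proteins and oxidative phosphorylation subunits depended clearly on the scaling. The count of mitochondrial ribosomal proteins did so less. With median alignment the median was 0.29 for cytosolic ribosomal proteins, 0.16 for oxidative phosphorylation subunits and 0.16 for mitochondrial ribosomal proteins, beside 0.10 over all genes. Mitochondrial ribosomal proteins were higher in 35 of 58 (38 with median alignment), with 7 higher and 1 lower at an unadjusted p under 0.05. MRPS2 was at 0.53, MRPL23 at 0.46 and MRPL18 at -0.46. Oxidative phosphorylation subunits were higher in 28 of 50 (39 with median alignment), with a median of 0.03. The complex I subunits NDUFA13, NDUFS8 and NDUFS7 were at 0.44, 0.34 and 0.44, and all 4 members at an unadjusted p under 0.05 were higher on their brightest probe set. The other tested probe set of NDUFS7 was at -0.79, also at an unadjusted p under 0.05. Cytosolic ribosomal proteins were higher in 18 of 31 (27 with median alignment), with RPL32 at -0.46, RPL9 at 0.45 (-0.052 on its other tested probe set) and RPL22 at -0.39. Proteasome subunits were higher in 15 of 27 (17), with PSMD9 at -0.45 and PSMD11 at 0.48. Heat shock proteins and chaperones were higher in 15 of 37 with quantile normalization and in 23 with median alignment, so their direction depends on the scaling, and CHORDC1, a cochaperone of HSP90, was at -0.46. Cholesterol synthesis and transport genes were higher in 18 of 23 (19), with a median of 0.14. CYP46A1, the neuronal enzyme that clears cholesterol from the brain, read 10.19, 10.10 and 10.35 beside 9.86, 9.92 and 9.69 (0.39 ± 0.17, adjusted p = 0.414), and it was the only member of that list at an unadjusted p under 0.05.

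Immediate early genes split 7 to 6 of 13 in both scalings, with NR4A1 at -0.65 and JUND at 0.85. Apoptosis regulators were higher in 12 of 18 (13 with median alignment), with the executioner BAX at 0.80 and the death receptor adaptor TRADD at 0.45. The 2 other tested probe sets of BAX were at -0.83 and 0.24. Genes of phagocytosis signals split 8 to 11 of 19 (11 to 8), with the fractalkine receptor CX3CR1 at -0.54 and protein S (PROS1), a bridge to phagocyte receptors, at -0.58.

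Markers of the cell types in the block were read in the same way. Of 12 tested microglia and macrophage markers, 3 were higher and 9 lower (5 and 7 with median alignment), with a median of -0.23 (-0.49 to -0.0079 over the alternative fits) and 3 lower at an unadjusted p under 0.05. P2RY12, the microglial purine receptor, read 9.18, 8.89 and 8.10 beside 9.15, 9.87 and 10.14 (-0.99 ± 0.31, adjusted p = 0.278), so the groups overlapped. CX3CR1 read 7.19, 7.61 and 7.27 beside 7.96, 7.93 and 7.79, and PTPRC (CD45), the leukocyte phosphatase, 6.11, 6.43 and 5.73 beside 6.71, 7.53 and 6.92. In both the groups were apart. The summed intensity of the list ran from 4655 to 5541 in the combined arrays and from 5278 to 6310 in the progesterone arrays, and the part of this shift in the called genes was not tested. Ependyma and choroid plexus markers were higher in 6 of 6 in both scalings (median 0.41, 0.03 to 0.70 over the alternative fits), with summed intensities of 902 to 1240 beside 670 to 974. CLIC6, a chloride channel protein of choroid plexus, was the only one at an unadjusted p under 0.05, at 0.68.

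Oligodendrocyte and myelin markers were higher in 6 of 10 (9 with median alignment), with a median of 0.02 and summed intensities of 29065 to 31009 beside 27570 to 33631. Astrocyte markers were higher in 5 of 9 with quantile normalization and in 9 of 9 with median alignment, with the transcription factor SOX9 at 1.08. Neuron markers were higher in 4 of 7 (5), with summed intensities of 20828 to 22459 beside 19976 to 23376. Endothelial and pericyte markers were higher in 5 of 7 in both scalings, with the efflux pump ABCB1 at 0.57 and the adhesion protein PECAM1 at 0.42. Markers of dopamine, noradrenaline and acetylcholine neurons were higher in 5 of 8 in both scalings, with a median of 0.33 and CHAT, which makes acetylcholine, at 0.61. Cerebellar markers split 3 to 3 of 6 (4 to 2), and the 2 tested blood markers were lower in both scalings, HBB at -0.44 and ALAS2 at -0.17. The blood sums ran from 198 to 908 in the combined arrays and from 402 to 589 in the progesterone arrays. None of the cell type markers passed the threshold.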

How the data were processed

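Total RNA was extracted with Trizol and RNeasy columns and labelled with biotin, per the labels. The authors deposited 1 linear intensity for each probe set, scaled so that every array has a mean of 200.0 once 2% is trimmed at each end. Software details are not given in the sources used here. Values were set to a floor of 4.99 (5th percentile), turned into log2 intensity from the deposited values, and quantile normalized, since array medians ran from 6.15 to 6.62. The 99 controls were removed, and 26383 of 52766 probe sets with a mean of at least 6.31 (79.5) were tested. Gene names come from the platform annotation, and 15020 tested probe sets have 1 symbol. No genomic position was used.

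Limma 3.58.1 (R 4.3.3) was fitted to all 12 arrays with 4 group means (8 residual and 3.54 prior degrees of freedom), two-sided, with Benjamini-Hochberg adjustment over all probe sets tested. The code was checked on simulated data. Figures used matplotlib 3.10.9. Named genes were those called, the 12 of lowest p in each direction, up to 3 of lowest p in each of 42 lists, and a set of serotonin, stress and steroid genes. Members, lists and rules were chosen with earlier results of these data known. Same-numbered arrays of the 2 groups did not deviate together (correlations -0.26, -0.15 and -0.08), and no block was used. That check leaves out the placebo and estrogen arrays, which also enter the fit. On the first principal component the first arrays of placebo, estrogen and estrogen plus progesterone lay together (-51.6, -44.9 and -44.0). The remaining arrays lay between -1.64 and 29.0. A fit with a replicate block is given below.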

Additional observations from a re-analysis of the deposited data

How the results depend on the processing

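With 3 animals a group the 95% interval reached a median of 0.49 to each side of a log2 difference, and low signal kept dim genes out of the test. The 22 calls became 17 with median alignment, 16 with no filter, 23 and 22 with the floor at the 25th and 1st percentile, 4 with a filter at the 75th percentile, 7 with only the 6 arrays compared, 42 with an intensity trend and robust prior, 44 with array weights, and 0 of 9305 when each gene was tested on its brightest probe set alone, where limma had 1197 at an unadjusted p under 0.05. Of the 22, 14 were still called with median alignment, 7 with no filter, 4 with the filter at the 75th percentile, 4 with only the 6 arrays, 20 with the trend and robust prior, and all 22 with either floor and with array weights. With only the 6 arrays TM7SF3 had an adjusted p of 0.0585, and PPM1A and the first WASHC4 probe set were the named ones still called. With no filter TM7SF3, PPM1A and that WASHC4 probe set passed, and USP16 (0.0694), EXTL2 (0.0625), ELFN2 (0.0738), ANKRD11 (0.0738), LPCAT4 (0.0777), EXOC3L1 (0.0893), the second WASHC4 probe set (0.0803), ITPRID2 and MYO6 (both 0.102) did not. Leaving out 1 array gave 0 to 42 calls. Without the first arrays of placebo, estrogen and estrogen plus progesterone, which was chosen after seeing the data, there were 15, of which 6 were among the 22. The replicate block gave 19, of which 16 were among the 22, and EXTL2 (adjusted p = 0.0583), ITPRID2 (0.0965), EXOC3L1 (0.0982) and MYO6 (0.0904) lost their call. The labels give no basis for that pairing. Probe sets whose arrays did not overlap numbered 6299 to 8245 without 1 array, since fewer arrays overlap less. The cause of the other changes was not tested.

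The sign of some small differences turned. MAOA was at -0.014 without the third combined array and -0.023 without the second progesterone array, with a range of -0.023 to 0.24 over all arrays left out, and CRHBP was at -0.059 and -0.11 in the same fits (range -0.11 to 0.17). Without the second progesterone array UCN was at 0.36 (range -0.49 to 0.36) and PGRMC2 at 0.13 (range -0.25 to 0.13), and PGRMC2 was at 0.017 with median alignment. GCH1 was at -0.033 without the second combined array (range -0.033 to 0.21), GATA2 at -0.097 without the third progesterone array (range -0.097 to 0.40), and ESR2 at -0.087 without the first (range -0.087 to 0.48). Some genes below the threshold passed in another fit: PPP2R2C had an adjusted p of 0.0323 with only the 6 arrays, PPM1K of 0.0463 with median alignment, and CCDC88A of 0.0488 with the floor at the 25th percentile.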
